A study of Mus musculus with 16 samples.

Results

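The comparison described here is the loss of STAT3 in mouse CD4+ T cells that received no IL-6. It rests on 8 of the 16 arrays of the series, 4 from STAT3-deficient and 4 from wild-type (WT) cells, chosen by the titles that name medium or TGFb as the culture. Within each genotype, 2 arrays came from cells in medium and 2 from cells with TGFb, and each STAT3-deficient array was set against the WT array of the same condition and replicate number, which gives 4 genotype differences for every gene. The STAT3-deficient cells carried floxed STAT3 with a CD4 Cre, a recombinase driven from the CD4 gene, which is active in T cells and their precursors, and the WT cells carried the floxed gene without Cre, per the labels. Deletion therefore preceded the culture, and a control with Cre and an intact gene was not analysed here. In both genotypes naive CD4+ cells (CD44-, CD62L+) were sorted and stimulated for 3 days with antibodies against CD3 and CD28, with 2.5 ug/ml TGFb or none. The other 8 arrays came from cells that received IL-6 at 10 ug/ml, alone or with TGFb, in the units of the labels. The labels do not say whether replicates are separate mice or cultures. The X-inactivation RNA Xist and the Y-linked Eif2s3y, given below, parted the replicate numbers by sex, so arrays of different numbers came from different mice. Whether arrays of the same number share mice is not stated, and part of the spread may be technical. The p-values therefore cover no more than the spread of these arrays.

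STAT3 is a latent transcription factor that Janus kinases phosphorylate at cytokine receptors such as those for IL-6, IL-10, IL-21 and IL-23. It then enters the nucleus as a dimer and binds short palindromic elements near its target genes, among them its own inhibitor Socs3. In CD4+ T cells it is best known for the IL-6 response that turns naive cells into Th17 and follicular helper cells, and the labels describe TGFb as a cytokine that does not activate it. The arrays without IL-6 address what STAT3 loss does to activated T cells when that inducer has not been added.

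The arrays were those of T cells. All 9 measured T cell markers reached log2 8 or more (median 11.73), while 2 of 2 CD8 T cell, 10 of 10 myeloid, 4 of 4 mast cell and basophil and 2 of 2 erythroid markers stayed under log2 8 on all 8 arrays. Ighm among 7 B cell markers, Klrd1 and Eomes among 5 NK cell markers, H2-Ab1 and Cd74 among 7 dendritic cell markers and Itga2b among 4 platelet markers reached it. Replicate 1 arrays read the X-inactivation RNA Xist at 12.86 to 13.21 and the Y-linked Eif2s3y at 3.81 to 4.52, and replicate 2 arrays read them at 6.87 to 7.38 and 10.17 to 10.77. The replicate numbers also differed in the Actb signal at the 5′ end minus that at the 3′ end, a measure of RNA quality. It was -0.5 to -0.2 on the log2 scale in replicate 1 and -1.24 to -0.89 in replicate 2. The genotype difference was taken within a replicate number, so that each pair joined arrays of 1 sex. Median intensities lay between 66 and 72, and precision is limited by the small number of arrays.

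One pair of arrays stood apart from the others, and values without it are given for most genes and lists named below. In TGFb replicate 1 the genotype difference had an SD over the 13007 tested genes of 0.66 on the log2 scale, against 0.24, 0.25 and 0.24 in medium replicate 1, medium replicate 2 and TGFb replicate 2. A 2-fold or larger difference was seen for 1249 genes in that pair (364 above and 885 below WT, 9.6% of those tested) and for 50, 54 and 60 in the other 3. The 4 pairs with IL-6 held 793 to 1955 such genes.

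**Figure D1:**
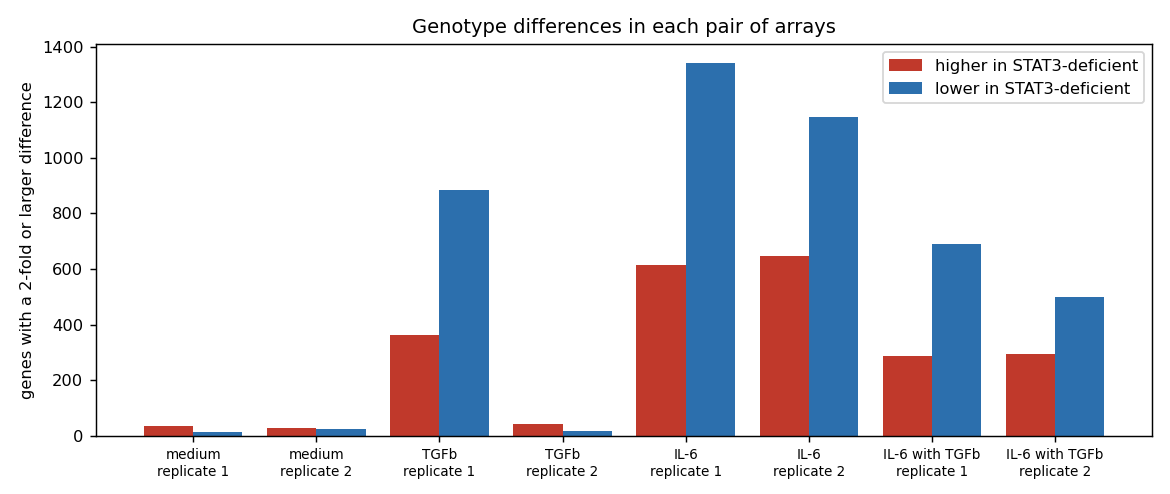
Number of genes, of 13007 tested, whose level differed 2-fold or more between the STAT3-deficient and the WT array of a pair, for the 4 pairs without IL-6 (left) and the 4 with IL-6 (right); red bars count genes above WT and blue bars genes below. The TGFb replicate 1 pair holds 1249 such genes, against 50 to 60 in the other 3 pairs without IL-6.

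The STAT3-deficient array of that pair differed more from its own replicate than any other array did: the SD of the log2 difference between STAT3-deficient TGFb replicates 1 and 2 was 0.82, against 0.37 to 0.68 for the other 7 pairs of replicates. It read Il17a, the signature cytokine of Th17 cells, at 9.55, where the other 7 arrays without IL-6 lay between 6.04 and 6.39. Of all 16 arrays only the WT arrays with IL-6 and TGFb read Il17a higher (10.16 and 11.58). The STAT3-deficient array with IL-6 and TGFb of replicate 1 lay about as close to WT TGFb replicate 1 (SD 0.41) as to its own replicate 2 (SD 0.44), and further from STAT3-deficient TGFb replicate 2 (SD 0.64). STAT3-deficient TGFb replicate 1 lay at an SD of 0.63 from STAT3-deficient IL-6 with TGFb replicate 2, against the 0.82 from its own replicate. It lay about as far from STAT3-deficient medium replicate 1 (SD 0.64) and WT TGFb replicate 1 (SD 0.66). Ifng read 9.83 and 10.97 in STAT3-deficient cells with IL-6 and TGFb, and 4.39 and 7.8 in those with TGFb (replicates 1 and 2). Itgae, an integrin chain, read 9.76 and 11.56, and 10.6 and 8.46, in that order. Whether the labels of these STAT3-deficient replicate 1 arrays were exchanged was not tested by any independent measurement. Values with them exchanged are given for a part of the results as an alternative, not as a correction. The WT partner also carried values unlike those of its replicate. Foxp3, which defines regulatory T cells and is induced by TGFb, read 7.96 and 9.98 in STAT3-deficient cells with TGFb and 4.81 and 9.99 in WT cells with TGFb.

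Stat3 was read first, as the check of the labels. Its brightest probe set (1460700_at) read 8.4 and 9.13 in STAT3-deficient cells in medium and 8.46 and 10.46 with TGFb, against 10.22 and 11.41 in WT cells in medium and 11.79 and 12.18 with TGFb (log2 intensity, replicates 1 and 2). In each pair the STAT3-deficient array lay below its WT partner, but the groups overlapped, because STAT3-deficient TGFb replicate 2 (10.46) lay above WT medium replicate 1 (10.22). The other STAT3-deficient arrays of the series, with or without IL-6, read Stat3 at 8.4 to 9.56. Values without TGFb replicate 1 keep STAT3-deficient TGFb replicate 2 as the only TGFb array of that genotype, which limits them. The 4 differences were -1.81, -2.29, -3.33 and -1.72, with a mean of -2.29 (SE 0.27, 95% interval -2.95 to -1.62).

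In limma's test paired over the 4 differences, with Benjamini-Hochberg adjustment over all 13007 genes, this change had an unadjusted p = 0.000146 and did not pass (adjusted p = 0.658). It passed without the TGFb replicate 1 pair (change -1.94, adjusted p = 0.00194) and with the labels exchanged (-2.15, adjusted p = 0.0425). A second probe set (1426587_a_at) gave a mean difference of -2.25, from -3 to -1.39 over the pairs. For 1424272_at and 1459961_a_at, both dimmer, the means were -0.53 and -0.27. Whether a probe set lies within the floxed stretch could not be looked up, and one outside it would check nothing. Because each array measured RNA from many cells, fewer cells of a kind and less RNA per cell cannot be told apart.

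Across the transcriptome, limma's paired test called 0 of 13007 genes at an adjusted p under 0.05 (0%). At an unadjusted p under 0.05 there were 225 genes (1.73%), 110 above (0.846%) and 115 below WT (0.884%). All 4 differences shared a sign in 1144 genes (8.8%), 597 above (4.59%) and 547 below (4.21%), and only 7 of these had a mean difference of 1 or more on the log2 scale (0.0538%). For 12356 genes (95%) the 95% interval of the mean difference lay within -1 and 1, so that a 2-fold mean difference fell outside it. Groups of 4 arrays that did not overlap were found for 49 genes (0.377%), 31 above (0.238%) and 18 below WT (0.138%). Without TGFb replicate 1 the test called 3 genes (0.0231%) and 752 had an unadjusted p under 0.05 (5.78%). With the labels exchanged it called 2 (0.0154%). With the 16 arrays fitted together and the replicate number as a block it called 2, with array weights 2, and without a replicate block 0.

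The same paired test on the 8 arrays with IL-6 called 1249 genes (9.6%), 249 higher (1.91%) and 1000 lower (7.69%) in STAT3-deficient cells. These are separate arrays of both genotypes, in a fit of the same size with a larger prior SD (0.255, against 0.177 without IL-6).

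The 7 genes with 4 differences of 1 sign and a mean of at least 1 were Taf15 and Stat3, below WT, and Cdk5rap1, Elobl, Rpl27a, Capn3 and Cxcr6, above WT. Taf15 encodes an RNA-binding protein that takes part in transcription. It read 5.29, 4.25, 5.78 and 4.86 in STAT3-deficient cells and 7.38, 6.87, 7.38 and 7.48 in WT cells (medium replicates 1 and 2, then TGFb replicates 1 and 2). The groups did not overlap, and the lowest WT array lay more than 1 log2 unit above the highest STAT3-deficient array. The mean difference of -2.23 (SE 0.19, 95% interval -2.71 to -1.76) had the smallest p of all genes (2.32e-05) and did not pass limma's adjustment (adjusted p = 0.301). It passed without TGFb replicate 1 (-2.45, adjusted p = 0.0006), with the labels exchanged (-2.33, adjusted p = 0.00803) and with all 16 arrays and a replicate block (adjusted p = 0.0356). All 4 STAT3-deficient values lay under the level minimum of log2 6, so the size of the change depends on the background. The other Taf15 probe set (1453504_at) stayed at or under 4.46 on all 8 arrays in both genotypes and gave -0.08, so the difference rests on 1438130_at alone.

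Cdk5rap1 encodes an enzyme that modifies mitochondrial transfer RNAs. It read 9.37, 8.87, 9.22 and 8.86 in STAT3-deficient cells and 8.54, 8.02, 7.89 and 7.64 in WT cells, in the same order of arrays. Every STAT3-deficient array lay above every WT array, and the 4 differences were alike (0.83, 0.84, 1.33 and 1.22). The mean was 1.06 (SE 0.13, 95% interval 0.75 to 1.37), with an unadjusted p = 0.000152 and adjusted p = 0.658 in limma's test, 0.0673 without TGFb replicate 1 and 0.112 with the labels exchanged. Elobl, annotated as elongin B-like, read 6.17, 6.17, 6.34 and 7.08 in STAT3-deficient cells and 5.73, 5.25, 4.58 and 4.75 in WT cells. Here too the groups did not overlap, but all WT values lay under log2 6, and the mean of 1.36 (SE 0.31) had an adjusted p = 0.992.

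In the remaining 3 of the 7 the pairs were less alike. Rpl27a, a protein of the large ribosomal subunit, gave differences of 2.09, 0.75, 1.96 and 0.28 (mean 1.27, adjusted p = 0.992 in limma's test), with overlapping groups, and a mean of 0.76 with the labels exchanged. Cxcr6, a chemokine receptor of activated T cells, gave 0.23, 0.57, 3.32 and 0.39, and its mean of 1.13 was 0.39 without TGFb replicate 1 and 0.27 with the labels exchanged. Capn3, a calcium-dependent protease known from muscle, read 8.24, 7.45, 11.59 and 7.55 in STAT3-deficient cells and 8.18, 7.17, 7.44 and 7.49 in WT cells. Its mean of 1.14 was 0.13 without the TGFb replicate 1 pair, which alone gave 4.15, and 0.44 with the labels exchanged.

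**Figure D2:**
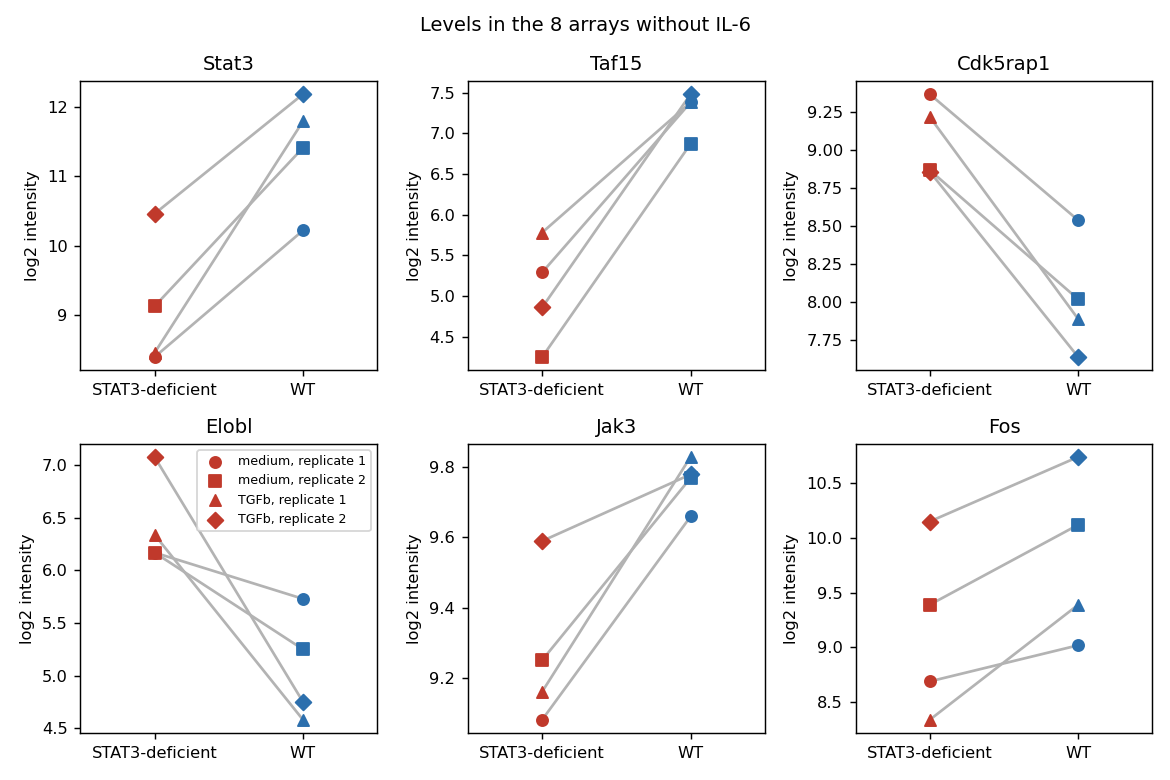
Log2 intensity of 6 genes in the 4 STAT3-deficient (red, left) and 4 WT arrays (blue, right) without IL-6; lines join the arrays of a pair, marker shapes give the condition and replicate, and each panel has its own axis. Taf15, Cdk5rap1, Elobl and Jak3 show no overlap between the groups, and all lines of a panel run the same way.

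The promoters of Stat3 and of the 3 genes whose groups did not overlap among these 7 are shown because all 4 of their differences shared a sign with a mean of at least 1, and because STAT3 dimers are known to bind the palindrome TTCNNNGAA. Each sequence is RefSeq's on GRCm38.p6, from 250 bases before to 50 after the annotated start, written 5′ to 3′ on the gene's strand, with matches to TTCNNNGAA in capitals. The windows are chr11:100939491-100939790 on the minus strand for Stat3, chr11:83472858-83473157 on the plus strand for Taf15, chr2:154372670-154372969 on the minus strand for Cdk5rap1 and chr11:88966882-88967181 on the minus strand for Elobl.
Stat3: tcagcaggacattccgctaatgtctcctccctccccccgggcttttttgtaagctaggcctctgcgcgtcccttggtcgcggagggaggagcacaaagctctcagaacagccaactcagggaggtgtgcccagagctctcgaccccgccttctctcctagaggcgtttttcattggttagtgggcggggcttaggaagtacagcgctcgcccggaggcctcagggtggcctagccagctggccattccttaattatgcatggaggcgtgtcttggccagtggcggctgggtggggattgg
Taf15: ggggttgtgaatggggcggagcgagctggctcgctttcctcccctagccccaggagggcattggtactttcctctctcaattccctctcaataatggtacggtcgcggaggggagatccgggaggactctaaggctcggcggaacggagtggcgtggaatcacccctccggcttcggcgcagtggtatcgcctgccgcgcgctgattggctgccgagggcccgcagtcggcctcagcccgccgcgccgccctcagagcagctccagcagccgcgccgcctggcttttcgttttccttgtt
Cdk5rap1: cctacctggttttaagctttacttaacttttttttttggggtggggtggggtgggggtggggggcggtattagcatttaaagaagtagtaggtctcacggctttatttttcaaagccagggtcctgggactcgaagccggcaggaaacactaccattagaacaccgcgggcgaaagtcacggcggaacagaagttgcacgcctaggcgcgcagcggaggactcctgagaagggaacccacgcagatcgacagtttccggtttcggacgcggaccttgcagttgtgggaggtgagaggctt
Elobl: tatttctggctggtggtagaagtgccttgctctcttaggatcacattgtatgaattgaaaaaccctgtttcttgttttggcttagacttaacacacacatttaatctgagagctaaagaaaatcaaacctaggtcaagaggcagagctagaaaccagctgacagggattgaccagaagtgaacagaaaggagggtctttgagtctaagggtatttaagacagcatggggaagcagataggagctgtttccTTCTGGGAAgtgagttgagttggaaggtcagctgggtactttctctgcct
The palindrome reads the same on both strands. It occurred once in the Elobl window, at bases 251 to 259, and these letters did not occur in the Stat3, Taf15 or Cdk5rap1 windows. Among the 10466 tested genes with a promoter sequence, 856 (8.18%) held it. Stat3, Taf15 and Elobl lie on chromosome 11, as do 1105 of the 13007 tested genes (8.5%).

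Stat3, Taf15, Cdk5rap1 and Elobl also differed in the arrays with IL-6. In that separate paired fit Stat3 changed by -2.91 (SE 0.19), Taf15 by -2.57 (SE 0.22), Cdk5rap1 by 1.05 (SE 0.17) and Elobl by 1.32 (SE 0.23), with adjusted p = 0.000548, 0.00146, 0.0128 and 0.0174 in limma's test. Cdk5rap1 and Elobl were thus higher, and Stat3 and Taf15 lower, in STAT3-deficient cells with IL-6. Capn3 was higher there too (1.17, adjusted p = 0.0277 in the same test). Rpl27a (0.51) and Cxcr6 (-1.38) did not pass (adjusted p = 0.233 and 0.0774). For the first 4 genes, the test of the difference itself, without minus with IL-6, gave 0.62 (95% interval -0.24 to 1.49) for Stat3 and 0.34 (-0.47 to 1.15) for Taf15. For Cdk5rap1 it gave 0.01 (-0.42 to 0.44) and for Elobl 0.04 (-0.81 to 0.89), and none of the 4 passed (adjusted p from 0.428 to 0.988).

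Over all genes that test called 242 (1.86%), 223 with a genotype difference further above, or less far below, WT without IL-6 (1.71%) and 19 the other way (0.146%). Of the 19 measured genes of a panel of STAT3 and helper cell genes, 4 passed. Il21, the cytokine of Th17 and follicular helper cells, gave 7.02 (adjusted p = 0.000566), Maf, a transcription factor of Il21, 4.18 (adjusted p = 0.00514), Rora, a Th17 nuclear receptor, 2.49 (adjusted p = 0.0129) and Bcl3, a cofactor of NF-kB, 1.75 (adjusted p = 0.0271). Without IL-6 their mean genotype differences were -0.14, 0.45, 0 and -0.87, and with IL-6 they were -7.16, -3.73, -2.48 and -2.62. Il21 lay under the level minimum of log2 6 on all 8 arrays without IL-6, so its value there, and the size of 7.02, depend on the background. Maf lay under that minimum on all medium arrays and on the STAT3-deficient arrays with IL-6 alone (5.13 and 5.73). The size of 4.18 thus depends on the background in part. Without a replicate block the test called 46 genes in place of 242, and Bcl3 did not pass (adjusted p = 0.377). The count of 242 also depended on the replicate 1 arrays with TGFb. It was 91 without that pair, 12 without it and the matching pair with IL-6, and 103 with the labels exchanged. The calls of Il21 and Maf held in each of these 3 fits. Rora did not pass in the last of them (1.46, adjusted p = 0.254), nor without both pairs (2.1, adjusted p = 0.129), and Bcl3 did not pass without both pairs (2.07, adjusted p = 0.125).

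**Figure D3:**
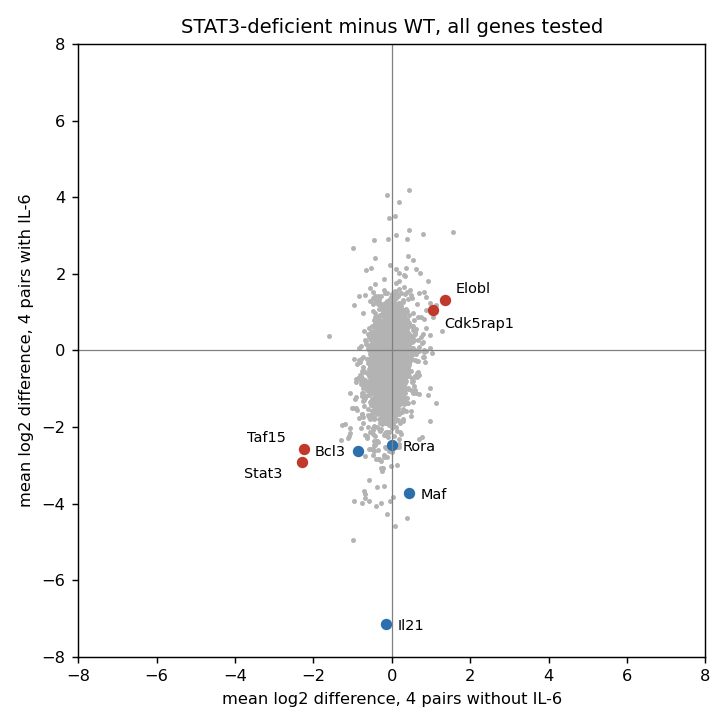
Mean log2 difference (STAT3-deficient minus WT) over the 4 pairs without IL-6 (horizontal axis) and the 4 pairs with IL-6 (vertical axis), 1 grey point for each of 13007 genes; both axes run from -8 to 8. Stat3, Taf15, Cdk5rap1 and Elobl (red) lie away from 0 on both axes, and Il21, Maf, Rora and Bcl3 (blue) lie far below 0 on the vertical axis with means between -0.87 and 0.45 on the horizontal one.

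Among the feedback inhibitors and direct targets of cytokine signalling, none passed limma's paired test without IL-6. Socs3, which blocks the receptor chain gp130, read 7.67, 9.84, 7.72 and 10.76 in STAT3-deficient cells and 7.39, 10.46, 10.11 and 10.72 in WT cells. The arrays followed the replicate number and condition more than the genotype, and the differences of 0.28, -0.63, -2.39 and 0.05 had a mean of -0.67 (SE 0.43, adjusted p = 0.992), or -0.1 without TGFb replicate 1 and -0.44 with the labels exchanged. With IL-6 Socs3 changed by -3.75 (adjusted p = 0.000147), and the difference between these values did not pass (3.08, adjusted p = 0.0625). Socs1 and Cish, the inhibitors linked to interferon and IL-2 signals, gave means of -0.44 and -0.45, which were 0.02 and -0.03 without that pair and -0.07 and -0.17 with the labels exchanged. Pim1, a survival kinase, gave -0.36, or 0.23 without it and -0.03 with the labels exchanged.

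Bcl3 was the panel gene with the smallest p other than Stat3. It read 6.99, 7.89, 7.24 and 9.06 in STAT3-deficient cells and 7.2, 9.2, 8.75 and 9.5 in WT cells. Each STAT3-deficient array lay below its partner (differences from -1.52 to -0.21), and the mean of -0.87 (SE 0.24, 95% interval -1.46 to -0.28) had an unadjusted p = 0.0113 and an adjusted p = 0.992. Fos, a subunit of the AP-1 factor, showed the same order in all pairs: 8.69, 9.39, 8.34 and 10.15 in STAT3-deficient cells against 9.02, 10.12, 9.39 and 10.74 in WT cells. Its mean was -0.68 (SE 0.14, unadjusted p = 0.00261) and its adjusted p also 0.992. Jun, its partner, gave 0.09, -0.91, -1.63 and -0.66 (mean -0.78, or -0.49 without TGFb replicate 1).

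Jak3, the kinase bound to the common gamma chain of the IL-2 receptor family, parted the groups without overlap at a small difference. It read 9.08, 9.25, 9.16 and 9.59 in STAT3-deficient cells and 9.66, 9.77, 9.83 and 9.78 in WT cells. The mean was -0.49 (SE 0.12, unadjusted p = 0.00511, adjusted p = 0.992), and -0.43 without TGFb replicate 1. With IL-6 Jak3 was lower (log2 change -1.25, adjusted p = 0.0052), and the difference of 0.76 between these values (95% interval 0.34 to 1.18) did not pass (adjusted p = 0.0715). Of the 10 measured STAT factors and Janus kinases, Stat3 and Jak3 were the 2 with all 4 differences below 0 (4.21% of all genes), and none had all 4 above 0 (4.59%). The median over the list was -0.14, against -0.01 over all genes, and 0.01 without TGFb replicate 1.

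The cytokines Il21 and Il17a were at low levels on most arrays without IL-6, while Maf and Ahr with TGFb, and Rora and Batf in both conditions, lay above log2 7 on every array. Il21 lay between 4.32 and 5.73 in STAT3-deficient cells and between 4.46 and 5.86 in WT cells, under the level minimum on all 8 arrays. Il17a gave differences of -0.02, -0.04 and -0.02 in the other 3 pairs and 3.15 in TGFb replicate 1. Maf followed TGFb and not the genotype: it read 4.95 and 5.73 in STAT3-deficient cells in medium and 11.37 and 10.17 with TGFb, against 5.32 and 5.29 in WT cells in medium and 9.92 and 9.9 with TGFb. Ahr, the aryl hydrocarbon receptor, likewise read 5.17 and 5.78 in medium and 8.45 and 9.34 with TGFb in STAT3-deficient cells, against 5.52 and 6 in medium and 9.74 and 8.59 with TGFb in WT cells. Their genotype differences had means of 0.45 and -0.28 and did not pass (adjusted p = 0.992 for both), and were 0.12 and 0.06 without TGFb replicate 1. Rora gave 0 (95% interval -0.63 to 0.64), and -0.32 without that pair. Batf, an AP-1 partner needed for Th17 cells, gave -0.2, and 0.11 without it. Csf2, the cytokine GM-CSF, was above WT in all 4 pairs, by 0.05 to 2.32 (mean 0.83, unadjusted p = 0.0694).

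Over the 19 measured genes of the Th17 list, 0 passed, 3 had all 4 differences above 0 and 1 below, against 4.59% and 4.21% of all genes, and the median was -0.04, or 0.04 without TGFb replicate 1. With IL-6, 9 of the same 19 were lower and none higher, against 7.69% and 1.91% of all genes, with a median of -1.37. The list of 34 STAT3 targets and feedback genes had a median of -0.23, and of -0.01 without TGFb replicate 1, with 0 calls. With IL-6 19 of these 34 were lower and none higher, against the same 7.69% and 1.91% of all genes, and the median was -1.06. Those lists were drawn up with earlier results of these arrays known, so their direction with IL-6 is not independent evidence.

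**Figure D4:**
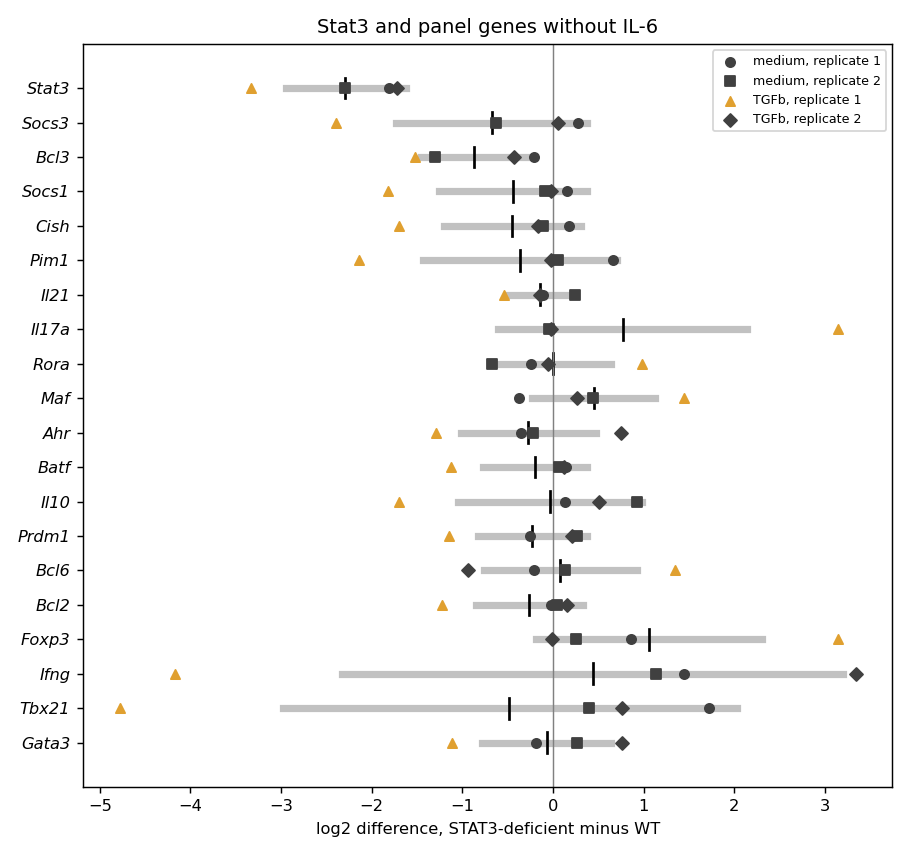
Log2 difference (STAT3-deficient minus WT) of Stat3 and the 19 measured panel genes in each of the 4 pairs without IL-6; orange triangles mark TGFb replicate 1, black ticks the mean and grey bars its 95% interval from limma. Stat3 lies left of 0 in all pairs, and for Stat3 and every panel gene the orange triangle lies outside the range of the other 3 points, as for Il17a (3.15) and Tbx21 (-4.78).

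For Th1 genes the TGFb replicate 1 pair ran against the other 3. Ifng, the Th1 cytokine, read 6.15, 9.78, 4.39 and 7.8 in STAT3-deficient cells and 4.7, 8.65, 8.57 and 4.46 in WT cells. In 3 pairs the STAT3-deficient array lay above WT (by 1.45, 1.14 and 3.34), and in TGFb replicate 1 it lay below (difference -4.17). The mean was 0.44 (SE 1.13, adjusted p = 0.992), or 1.98 without that pair (unadjusted p = 0.00049, adjusted p = 0.335) and 1.8 with the labels exchanged. Tbx21, the transcription factor T-bet, gave 1.72, 0.4, -4.78 and 0.76, a mean of -0.48 that was 0.96 without the pair. The chemokine Ccl3, chosen after its values were seen, read 10.31, 9.37, 6.32 and 6.92 in STAT3-deficient cells and 9.22, 8.01, 8.33 and 5.55 in WT cells. It was the third gene called, with Stat3 and Taf15, when TGFb replicate 1 was left out, as higher in STAT3-deficient cells (1.27, adjusted p = 0.00712 in limma's test), and it did not pass over 4 pairs (0.45, adjusted p = 0.992) or with the labels exchanged (1.64, adjusted p = 0.718). With IL-6 Ccl3 was higher by 3.14 (adjusted p = 0.000535).

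Over 4 pairs, 2 of the 19 measured Th1 genes had all differences above 0 and 0 had all below, against 4.59% and 4.21% of all genes. Without TGFb replicate 1, the pair that ran the other way, 11 lay above WT in all 3 remaining pairs and 0 below, against 13.6% and 10.9% of all genes. At an unadjusted p under 0.05 without TGFb replicate 1 there were 9 of 19 above WT and 0 below, against 3.38% and 2.41% of all genes. The list's median was 0.07 over 4 pairs, 0.31 without that pair and 0.15 with the labels exchanged, against -0.01, 0 and -0.02 over all genes, and 0 members were called over 4 pairs. Fasl, the death ligand, gave 0.33, 0.65, -0.2 and 0.83, and Cxcr3, a Th1 chemokine receptor, 0.49, 0.07, 1.08 and 0.37. Neither passed (unadjusted p = 0.0688 and 0.0271).

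Without TGFb replicate 1, cytotoxic and interferon response genes showed like counts. Fasl is in both the Th1 and the cytotoxic list, so the counts of these lists are not independent. Of 14 cytotoxic effector genes 6 lay above WT in all 3 remaining pairs and 0 below, against 13.6% and 10.9% of all genes. Their median was 0.3 without TGFb replicate 1, 0.05 over 4 pairs and 0.14 with the labels exchanged. Of 37 interferon response genes 13 lay above and 0 below, against the same shares, with medians of 0.19 and -0.13, and 0.15 with the labels exchanged. Over 4 pairs 1 gene of each list had all differences above 0 and 0 had all below, against 4.59% and 4.21% of all genes. In TGFb replicate 1 the medians of the Th1, cytotoxic and interferon lists were -1.25, -0.87 and -1.28. Klrc1, the NK cell receptor chain NKG2A, stayed near background on most arrays and gave a mean of -0.41. Xaf1, an interferon-induced protein, gave 0.94, 4.18, -0.91 and 2.06, the highest mean of all tested genes (1.57, unadjusted p = 0.0811, or 2.4 without TGFb replicate 1), and Ifih1, the RNA sensor MDA5, 0.27, 0.07, 0.24 and 0.14. For Xaf1 the 4.18 and 2.06 rest on WT values of 5.49 and 5.04, under log2 6, so their size depends on the background. The summed level of the 5 NK cell markers, all of them low but Klrd1 and Eomes, was 8.12, 8.31, 7.94 and 9.77 in STAT3-deficient cells and 7.88, 8.65, 9.73 and 10.8 in WT cells. It lay above WT in medium replicate 1 only, and its part in these lists was not tested.

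**Figure D5:**
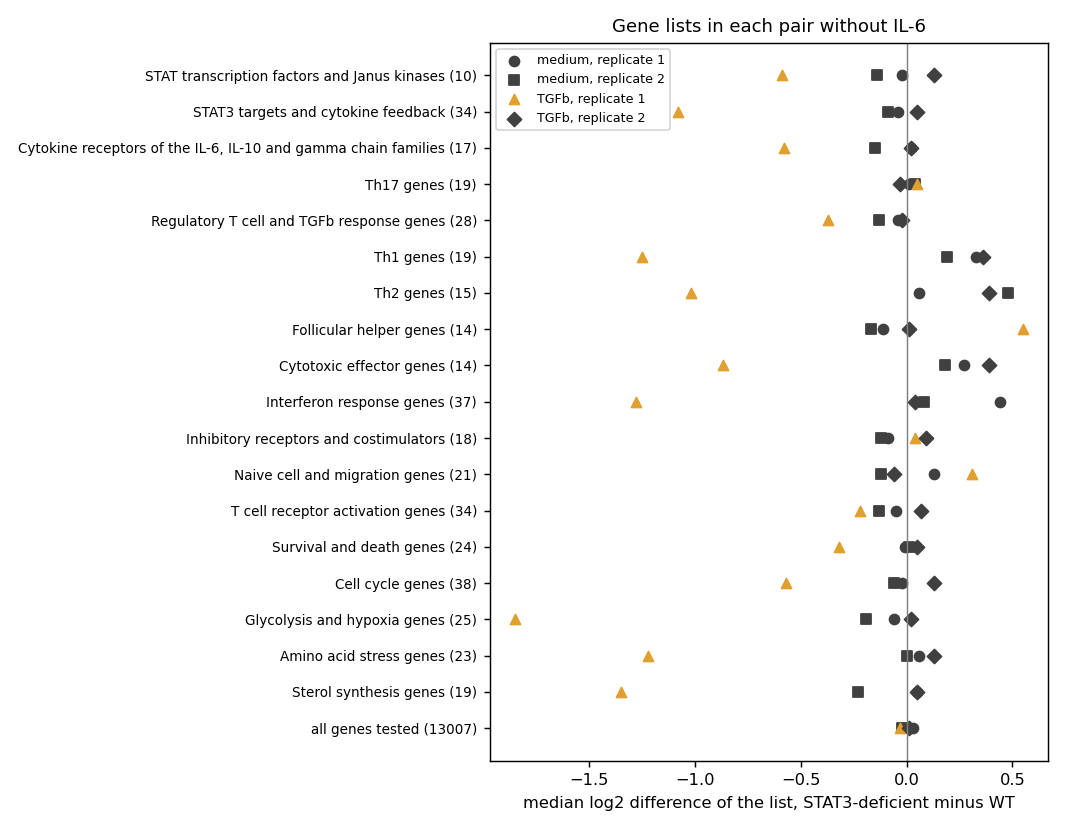
Median log2 difference (STAT3-deficient minus WT) over the tested members of 18 gene lists and over all genes, in each of the 4 pairs without IL-6; the number of members tested stands in brackets and orange triangles mark TGFb replicate 1. The Th1, Th2, cytotoxic and interferon lists lie right of 0 in the other 3 pairs, and in TGFb replicate 1 these lists lie left of 0 (-1.28 to -0.87), as do the glycolysis (-1.85), sterol (-1.35), amino acid stress (-1.22) and STAT3 target (-1.08) lists.

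For the 15 genes of the Th2 list the median was 0.3 without TGFb replicate 1 and 0.08 over 4 pairs. In the 3 remaining pairs 5 members lay above WT and 1 below, against 13.6% and 10.9% of all genes. All 4 differences were above 0 for 2 members and below 0 for 0, against 4.59% and 4.21% of all genes. The list's chemokine receptors Ccr4 and Ccr8 lay above WT in all 4 pairs by at most 0.69 (means 0.24 and 0.3). Gata3, the transcription factor of Th2 cells, gave -0.07 (95% interval -0.78 to 0.64), and 0.28 without that pair. Among genes that mark regulatory T cells, Foxp3 gave 0.86, 0.25, 3.15 and -0.01, a mean of 1.06 that was 0.36 without TGFb replicate 1. Izumo1r, the surface marker also called folate receptor 4, lay below WT in all 4 pairs (-1.96 to -0.15), as did Gpr83, a receptor of regulatory T cells (-1.16 to -0.05; unadjusted p = 0.0284 and 0.0296). Their means of -0.84 and -0.52 were -0.47 and -0.31 without TGFb replicate 1. The 28 genes of regulatory T cells and TGFb response had a median of -0.16, and of -0.01 without that pair.

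Among follicular helper genes, Bcl6, their transcription factor, gave -0.21, 0.13, 1.35 and -0.94, and Lef1, which acts before it, lay below WT in all pairs (-0.37 to -0.19, unadjusted p = 0.0463). Tox2 gave 0.33, and 0.15 without TGFb replicate 1. The receptor Il7r, which keeps naive cells alive, read 9.55, 10.42, 10.29 and 10.65 in STAT3-deficient cells and 7.94, 10.06, 10.38 and 9.73 in WT cells, with a mean of 0.7 (unadjusted p = 0.0414), and Il10rb, a chain of the IL-10 receptor, gave -0.37, and -0.1 without TGFb replicate 1. Prdm1, which encodes Blimp-1, and Il10 lay near or under log2 6 on most arrays and gave -0.23 and -0.03, which were 0.07 and 0.52 without it.

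Metabolic and proliferative lists followed TGFb replicate 1. Glycolysis and hypoxia genes (25 tested) had a median of -0.58 over 4 pairs, made of -0.06, -0.19, -1.85 and 0.02 in the single pairs, and of -0.05 without TGFb replicate 1. The same held for 19 sterol synthesis genes (-0.37, and -0.03 without it), 23 amino acid stress genes (-0.29 and 0.01) and 38 cell cycle genes (-0.13 and 0.01). Hk1, the first enzyme of glycolysis, and Vegfa, a hypoxia target, gave means of -0.54 and -0.76, which were -0.23 and -0.25 without that pair. Mvd and Dhcr7, enzymes of sterol synthesis, gave -0.39 and -0.48, and -0.24 and -0.16 without it. Sesn2 and Cebpb, genes of the amino acid stress response, gave -0.34 and -0.54, which were -0.16 and -0.11 without it. Bub1 and Foxm1, of mitosis, gave -0.66 and -0.18, and -0.15 and -0.13 without it.

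Survival genes gave small differences. Bcl2, the anti-apoptotic protein, gave -0.02, 0.04, -1.22 and 0.16. Bmf, a pro-apoptotic member of the same family, gave 0.34 and the death receptor Fas -0.31, or -0.18 without TGFb replicate 1. The costimulatory ligands Tnfsf14 (LIGHT) and Cd274 (PD-L1) gave 0.25 and -0.21, or 0.23 and -0.13 without it. In none of the 18 lists did a member pass limma's paired test over all genes.

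Medium and TGFb were also tested apart, from the fit of all 16 arrays with the replicate number as a block. In medium 0 genes were called (0%) and 37 had an unadjusted p under 0.05 (0.284%). With TGFb 0 were called (0%) and 237 had an unadjusted p under 0.05 (1.82%). The interaction, the genotype difference with TGFb minus that in medium, gave 0 calls (0%) and 99 at an unadjusted p under 0.05 (0.761%). Leaving out STAT3-deficient TGFb replicate 2, so that the group rested on replicate 1 alone and was assumed to vary like the others, gave 153 calls with TGFb (52 higher and 101 lower) and 7 for the interaction, while leaving out STAT3-deficient TGFb replicate 1 gave 0 calls in both.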

How the data were processed

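Affymetrix arrays were hybridised with biotin-labelled total RNA, per the labels' protocols. The deposited values are linear intensity values made with RMA, per the submitters' processing notes; the sources used here give neither its version nor how its usual log2 scale became whole numbers (6 to 37243). No further normalization was applied. Groups, doses and replicate numbers came from the titles and protocols.

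Of 45101 probe sets, 64 controls were left out, and GEO's platform annotation gave 34945 exactly 1 symbol, 932 several and 9160 none; 34741 matched RefSeq by Entrez number. Each of 18193 genes was represented by its brightest probe set over the 16 arrays. Log2 was taken with no pseudocount. The 13007 genes that reached log2 6 on at least 2 of 16 arrays were tested and 5186 set aside.

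The pooled comparison was fitted in limma 3.58.1 (R 4.3.3) on 8 arrays with the pair as a block (3 residual and 3.1 prior degrees of freedom), two-sided, with Benjamini-Hochberg adjustment and a call at 0.05. Medium, TGFb, their interaction and the difference without minus with IL-6 came from 16 arrays with 8 group means and the replicate number as a block (7 residual degrees of freedom). The comparison was set to pair the arrays by condition and replicate number. This pairing comes from the titles, which do not say what a number means. Deviations of same-numbered arrays correlated across genes at 0.11 to 0.86 over all 28 pairs of groups (0.25 to 0.86 over the 6 without IL-6). The numbers also differ in sex and in the Actb measure, so these correlations do not show which single arrays belong together. The paired test takes the 4 differences as independent. Medium and TGFb arrays of 1 number may share animals, which could make its p-values too small and its intervals too narrow. The fits were tested on simulated data with independent errors.

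Named were Stat3, a panel of 20 genes (19 measured), uncalled genes with 4 differences of 1 sign and a mean of at least 1, and the 2 members of each list with the smallest p. The comparison, the lists, the panel and the alternatives were chosen with earlier results of these data known. Alternatives changed the block, arrays, filter, normalization, probe set rule, pseudocount, array weights and eBayes setting, left out pairs or arrays, or exchanged the labels of the STAT3-deficient replicate 1 arrays with TGFb and with IL-6 and TGFb. Figures used matplotlib 3.10.9 under Python 3.11.15.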

Additional observations from a re-analysis of the deposited data

Results flagged for a closer look

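Among 55 named genes, the 4 genotype differences without IL-6 held 1 far from the other 3 in 8 genes (by Dixon's test at the 95% level). In 7 of these it was TGFb replicate 1. Chance would flag about 1 in 20 genes that were independent and not picked on these values, so that rate does not hold here. Some genes were named for a small p. Cxcr6 and Capn3 were named for a mean of at least 1, which TGFb replicate 1 made (0.39 and 0.13 without it). In that pair the difference (STAT3-deficient minus WT, log2) was 3.15 for Il17a, 3.32 for Cxcr6, 4.15 for Capn3, -1.82 for Socs1, -1.12 for Batf, -1.22 for Bcl2 and -1.45 for Dhcr7. In the eighth gene, Lef1, medium replicate 1 stood out at -0.37, against -0.19 to -0.2 in the other pairs. The Il17a, Cxcr6 and Capn3 values come from the array whose Il17a level (9.55) lay above that of every other array without IL-6.

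The genotype difference without IL-6 differed from that with IL-6, by limma's test of the difference itself, for 4 panel genes. The values were 7.02 for Il21, 4.18 for Maf, 2.49 for Rora and 1.75 for Bcl3.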

How the results depend on the processing

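The pooled comparison gave 0 calls in both fits without a replicate block and under each other filter, quantile normalization, the mean over probe sets, the pseudocount and the eBayes setting, and 0 to 3 when a pair was left out. It gave 2 calls with 16 arrays and a replicate block, 2 with array weights and 2 with the labels exchanged. Stat3 passed in these 3 settings, at -2.29, -2.05 and -2.15, and lay between -2.48 and -1.94 when a pair was left out. On 16 arrays the pooled comparison gave 2 calls with the block and 0 without it, where Stat3 and Taf15 had adjusted p = 0.64 and 0.403 in limma's test, against 0.0356 for both. Without a replicate block the counts for medium, TGFb and the interaction were also 0, and the difference without minus with IL-6 had 46 calls, against 242 (Bcl3 then at 1.75 did not pass). That count was 153 after a further quantile normalization, 103 with the labels exchanged and, in alternatives chosen after seeing the data, 91 without the TGFb replicate 1 pair and 12 without that pair and its partner with IL-6. Leaving out 1 array gave 0 to 153 calls with TGFb and 0 to 7 for the interaction. The cause was not tested. Of the named genes' alternatives 961 of 1009 kept direction and side of the threshold, not counting those of the pooled Stat3 result. In the main fits the only calls among these were the differences without minus with IL-6 of Il21, Maf, Rora and Bcl3. Most of the others lay far from a call, so that keeping their side of the threshold says little. No value that changed sign was called. When a pair was left out, the means lay between -0.64 and 0.016 for Socs1, -0.70 and 0.23 for Pim1, -0.028 and 1.04 for Il17a, -0.32 and 0.23 for Rora, -0.62 and 0.060 for Ahr, -0.31 and 0.11 for Batf, -0.35 and 0.52 for Il10, -0.40 and 0.074 for Prdm1, -0.34 and 0.42 for Bcl6, -0.40 and 0.060 for Bcl2, -1.21 and 0.96 for Tbx21, -0.35 and 0.28 for Gata3 and -0.53 and 1.98 for Ifng. Array weights gave 0.10 for Pim1, -0.30 for Rora, 0.046 for Batf, 0.46 for Il10, 0.035 for Prdm1, -0.20 for Bcl6, 0.62 for Tbx21 and 0.20 for Gata3. Quantile normalization gave 0.026 for Il10, and the mean over probe sets -0.047 for Rora and -0.020 for Bcl6. Exchanged labels gave -0.048 for Il17a, -0.51 for Rora, -0.15 for Bcl6, 0.021 for Bcl2 and 0.61 for Tbx21. The difference without minus with IL-6 turned to -0.13 (quantile), -0.11 (exchanged), -0.020 (without the pair) and -0.16 (without both pairs) for Cdk5rap1, to -0.31 (exchanged) and -0.082 (without both) for Elobl, to -0.25 (exchanged) and -0.016 (without both) for Rpl27a, and to 0.079 (mean over probe sets) and 0.019 (pseudocount 16) for Capn3. Levels under log2 6 are near background, which limits Taf15, Elobl and Il21. The same limit bears on single differences of other genes, among them Xaf1, Ifng, Maf, Foxp3 and Nts, with arrays of 1 or both genotypes under log2 6.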

Other observations

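Further genes were looked at after their values were seen. Mid1, a ubiquitin ligase of the X chromosome, read 9.76, 6.85, 8.9 and 6.54 in STAT3-deficient cells and 11.57, 8.29, 8.61 and 7.48 in WT cells (medium replicates 1 and 2, then TGFb replicates 1 and 2). Erdr1, also annotated to the X chromosome, gave differences of -0.76, -1.68, 0.5 and -1.6. Both lay below WT in every pair but TGFb replicate 1, and without that pair their means were -1.4 and -1.35 (adjusted p = 0.0602 and 0.107 in limma's test). Nts, the neuropeptide neurotensin, lay above WT in all 4 pairs, by 1.49, 0.8, 0.58 and 0.65 (mean 0.88, unadjusted p = 0.002, adjusted p = 0.992 in limma's test). It read 6.66, 6.88, 5.04 and 5.04 in STAT3-deficient cells and 5.17, 6.09, 4.46 and 4.39 in WT cells. All TGFb arrays and WT medium replicate 1 thus lay under log2 6, so the size of these differences depends on the background. Nkg7, a protein of cytotoxic granules, gave 0.92, 0.56, -1.88 and 1.14, and 0.87 without TGFb replicate 1 (adjusted p = 0.185).

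In the arrays with IL-6, Nkg7 and the ligand Tnfsf11 (RANKL) were higher in STAT3-deficient cells by 3.88 and 3.46 (adjusted p = 0.0163 and 0.000147). Without IL-6 their means were 0.18 and -0.08, or 0.87 and 0.11 without TGFb replicate 1. The difference without minus with IL-6 passed for both in limma's test (-3.7 and -3.54, adjusted p = 0.0319 and 0.00216). Both genes were picked after their values were seen. Neither call was followed in the alternatives that lowered that test's count, such as 46 without a replicate block.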
